A study of Arabidopsis thaliana with 10 samples.

Results

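The 9 genes described here carry nitrate into Arabidopsis roots and reduce it to ammonium: the transporters NRT1.1 (AT1G12110), NRT2.1 (AT1G08090), NRT2.2 (AT1G08100), NRT2.4 (AT5G60770) and NRT2.5 (AT1G12940), the transport partner NAR2.1 (AT5G50200), the nitrate reductases NIA1 (AT1G77760) and NIA2 (AT1G37130), and the nitrite reductase NIR1 (AT2G15620). They were taken by locus code, and all 9 were among the 27826 genes in the deposited table. They were chosen by function after the values of mcu123 replicate 3 were known, in which NRT2.1 lay far above the other mcu123 arrays. Everything said below about that array is therefore a description without a test.

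Transcript levels had been measured on 10 Affymetrix arrays in roots of 20-day-old seedlings, 5 from mcu123, labelled as a triple knockout of MCU genes, and 5 from the Col-0 wild type. MCU proteins form the pore of the mitochondrial calcium uniporter. Both genotypes grew without a further treatment in sterile hydroponics in 150 mL of 0.5-strength Murashige and Skoog medium with 0.1% sucrose and 0.05% MES at pH 5.8, with 16 h of light at 21 °C and 8 h of darkness at 17 °C. Each replicate was RNA from pooled roots, severed from the shoots with a blade and frozen. Whether the pools grew as separate batches is not in the labels, and the p-values below cover only the variation among these pools. In whole roots, fewer cells of a type and less RNA per cell cannot be told apart. The labels give no time of harvest, no age of the medium at harvest and no nitrate measurement.

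Roots take up nitrate through a low-affinity and a high-affinity system. NRT1.1 works over a wide range of concentrations and is also a nitrate sensor, while NRT2 transporters serve low concentrations, and NRT2.1 needs NAR2.1 to be active at the plasma membrane. Inside the cell, nitrate reductase makes nitrite in the cytosol and nitrite reductase makes ammonium in the plastid. As general background, nitrate itself induces NRT1.1, NIA1, NIA2 and NIR1 transcripts, whereas NRT2.1 is induced by nitrate and repressed when the plant is well supplied with reduced nitrogen. NRT2.4 and NRT2.5 are known as transporters of nitrogen-starved plants. The medium used here holds both nitrate and ammonium.

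Values are log2 intensities as deposited, with a median of 4.30 on each array and a range of 0.60 to 13.35. A difference of 1 on this scale is 2-fold. The 10 columns held the same set of values in different order, so a shift shared by all genes cannot be seen. Levels of different genes were not compared, because their probes differ, and no detection calls were available here. The targeted MCU1 and MCU3 were lower in every mcu123 array than in every wild-type array, with log2 differences of -1.66 for MCU1 and -1.98 for MCU3 (limma adjusted p = 4.0e-04 for each), and MCU2 measured 2.77 ± 0.27 in mcu123 and 2.86 ± 0.29 in the wild type (SD, n = 5 each). Markers of photosynthetic shoot tissue were not uniform: RBCS1A ranged over 5.08 to 7.98 in mcu123 and 4.31 to 6.74 in the wild type, whereas LHCB1.3, LHCB2.1 and PSAD1 lay below the array median on all arrays. The mean over 5 such markers, for comparison between arrays, was 2.72 to 3.84 in mcu123 and 2.61 to 3.46 in the wild type. Means over root hair markers ran from 6.07 to 6.56 in mcu123 and 6.17 to 6.51 in the wild type, and those over endodermis markers from 7.37 to 7.76 in mcu123 and 7.47 to 8.19 in the wild type. Of all genes, mcu123 replicate 3 had 3.14% at least 2-fold above and 2.14% at least 2-fold below the mean of the other 4 mcu123 arrays, the largest share of any array in either direction.

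No gene of nitrate uptake or reduction differed between the genotypes at an adjusted p under 0.05, where the same limma test called 0.0431% of all genes. At an unadjusted p under 0.05 there were 2 of the 9, NIA1 and NIA2, against 7.46% of all genes. Of the 9 mean differences, 4 were positive and 5 negative, and their median was -0.0044 against 0.012 for all genes, on the log2 scale. Of all 27826 genes, 14670 had positive and 13156 negative differences. The spread between pools of the same genotype was far larger than the difference between genotypes for the main uptake genes, and this spread is described gene by gene below.

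**Figure D1:**
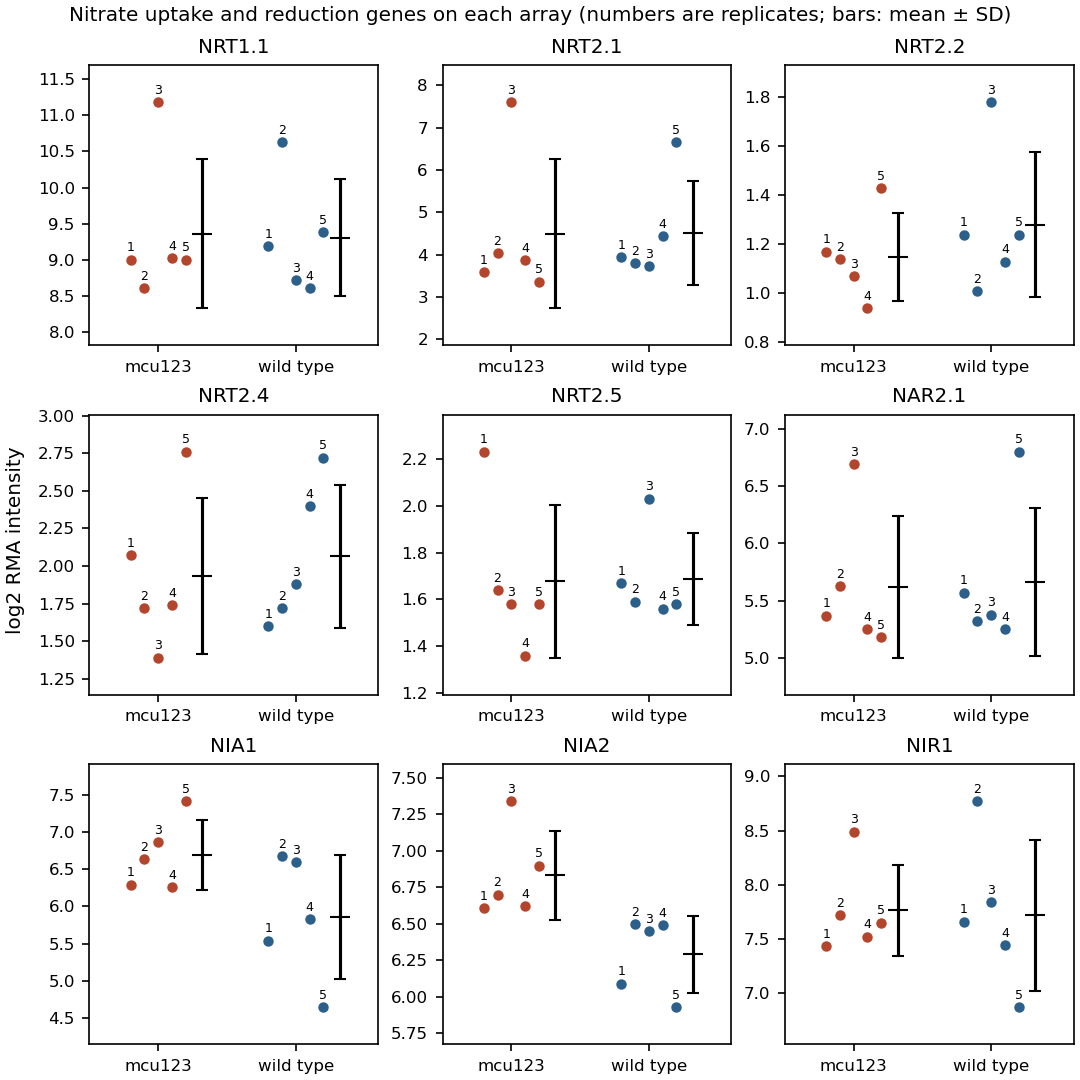
Log2 RMA intensity of the 9 genes on each array, with mcu123 on the left and wild type on the right of each panel; numbers are replicates and bars show mean ± SD (n = 5). NRT2.1 and NAR2.1 stood high in mcu123 replicate 3 and wild type replicate 5, NRT1.1 and NIR1 in mcu123 replicate 3 and wild type replicate 2, and the 2 groups were apart only for NIA2.

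NRT1.1, the dual-affinity transporter and sensor, measured 9.0, 8.61, 11.18, 9.02 and 9.0 in mcu123 replicates 1 to 5, against 9.19, 10.63, 8.72, 8.61 and 9.38 in wild type replicates 1 to 5. One array in each genotype stood high, replicate 3 of mcu123 and replicate 2 of the wild type, and the other 8 arrays lay between 8.61 and 9.38. The means were 9.36 ± 1.03 in mcu123 and 9.31 ± 0.80 in the wild type (SD, n = 5 each), a difference of 0.06 (95% interval -0.99 to 1.1, limma adjusted p = 0.99). Without mcu123 replicate 3 the difference was -0.40 (95% interval -1.14 to 0.34, limma adjusted p = 0.69). That fit left out the high mcu123 array and kept the high wild-type array, so its p-value cannot test genotype. The difference without both arrays is given in the last section.

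NRT2.1, the main high-affinity transporter of roots, measured 3.59, 4.04, 7.60, 3.87 and 3.36 in mcu123, against 3.94, 3.80, 3.73, 4.44 and 6.66 in the wild type. Again 1 array of each genotype was far above the rest, but in the wild type it was replicate 5 and not replicate 2. The means were 4.49 ± 1.76 in mcu123 and 4.52 ± 1.23 in the wild type, with a difference of -0.02 (95% interval -1.71 to 1.67, limma adjusted p = 1.0). That interval spans more than a 3-fold change in either direction, so these arrays could not show a genotype difference of moderate size. The difference was -0.80 without mcu123 replicate 3, 0.51 without wild type replicate 5 and -0.26 without both (limma adjusted p = 0.57, 0.90 and 0.63), the last fit being added after the values were seen.

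NAR2.1, the small partner protein of the NRT2 transporters, measured 5.37, 5.63, 6.69, 5.25 and 5.18 in mcu123, against 5.57, 5.32, 5.38, 5.25 and 6.80 in the wild type. The same pair of arrays as for NRT2.1, mcu123 replicate 3 and wild type replicate 5, stood above the rest, here with wild type replicate 5 the higher. Among the other 8 the order was not that of NRT2.1: wild type replicate 4, second of the wild type for NRT2.1, was lowest of the wild type for NAR2.1. The genotype difference was -0.04 (95% interval -0.77 to 0.69, limma adjusted p = 0.99). Without mcu123 replicate 3 it was -0.31, and without wild type replicate 5 it was 0.24.

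The other NRT2 genes lay near the bottom of the scale. NRT2.2, which lies next to NRT2.1 on the chromosome in the reference gene order, ranged over 0.94 to 1.43 in mcu123 and 1.01 to 1.78 in the wild type, and mcu123 replicate 3 was at 1.07. NRT2.5 ranged over 1.36 to 2.23 in mcu123 and 1.56 to 2.03 in the wild type, and mcu123 replicate 3 was at 1.58. NRT2.4 measured 2.07, 1.72, 1.39, 1.74 and 2.76 in mcu123, against 1.6, 1.72, 1.88, 2.4 and 2.72 in the wild type. Its lowest array of all 10 was mcu123 replicate 3, in which NRT2.1 was highest. In wild type replicate 5, where NRT2.1 was also high, NRT2.4 was instead the highest of the wild type. The genotype differences of NRT2.2, NRT2.4 and NRT2.5 were -0.13, -0.13 and -0.0044, with limma adjusted p-values of 0.89, 0.94 and 1.0. At these levels a transcript and background could not be separated here. NRT2.1 and NRT2.2 are close copies, and the probe sequences were not used here, so signal shared between them could not be examined.

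NIA2, 1 of the pair of nitrate reductases, measured 6.61, 6.70, 7.34, 6.62 and 6.90 in mcu123, against 6.09, 6.50, 6.45, 6.49 and 5.93 in the wild type. Every mcu123 array lay above every wild-type array, with 6.61 as the lowest mcu123 and 6.50 as the highest wild-type value. It was the single gene of the 9 without overlap, where 0.683% of all genes had no overlap and were higher in mcu123. The means were 6.83 ± 0.31 in mcu123 and 6.29 ± 0.27 in the wild type, a difference of 0.54 (95% interval 0.17 to 0.91), which did not pass (limma adjusted p = 0.46). The difference was 0.41 without mcu123 replicate 3, and ranged over 0.32 to 0.60 in 17 alternative fits with limma adjusted p-values of 0.32 to 0.76.

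NIA1, the other nitrate reductase, measured 6.29, 6.63, 6.86, 6.26 and 7.41 in mcu123, against 5.54, 6.67, 6.59, 5.83 and 4.65 in the wild type. The groups overlapped, since wild type replicates 2 and 3 lay among the mcu123 values, and wild type replicate 5 was the lowest of all. The means were 6.69 ± 0.47 in mcu123 and 5.85 ± 0.83 in the wild type, a difference of 0.84 (95% interval 0.07 to 1.61, limma adjusted p = 0.63). It was 0.54 without wild type replicate 5. Photosynthetic markers moved with NIA1 in part: RBCS1A, a subunit of Rubisco, measured 5.67, 6.12, 5.28, 5.08 and 7.98 in mcu123 and 5.02, 6.74, 6.05, 5.67 and 4.31 in the wild type, with mcu123 replicate 5 highest and wild type replicate 5 lowest as for NIA1. Over the 5 markers the mean was also highest in mcu123 replicate 5 (3.84) and lowest in wild type replicate 5 (2.61). LHCB1.3 ranged over 1.16 to 3.60 in mcu123 and 1.25 to 2.76 in the wild type, and LHCB2.1 and PSAD1 stayed under 2 on all arrays. RCA lay between 4.05 and 4.90 and went the other way, at 4.43 in mcu123 replicate 5 and 4.78 in wild type replicate 5. The part of shoot tissue in the NIA1 values was not tested.

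NIR1, the plastid nitrite reductase, measured 7.43, 7.72, 8.49, 7.52 and 7.65 in mcu123, against 7.66, 8.77, 7.84, 7.44 and 6.87 in the wild type. As for NRT1.1, mcu123 replicate 3 and wild type replicate 2 were the high arrays, and wild type replicate 5 was the lowest. The genotype difference was 0.05 (95% interval -0.62 to 0.71, limma adjusted p = 0.98), and -0.14 without mcu123 replicate 3.

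**Figure D2:**
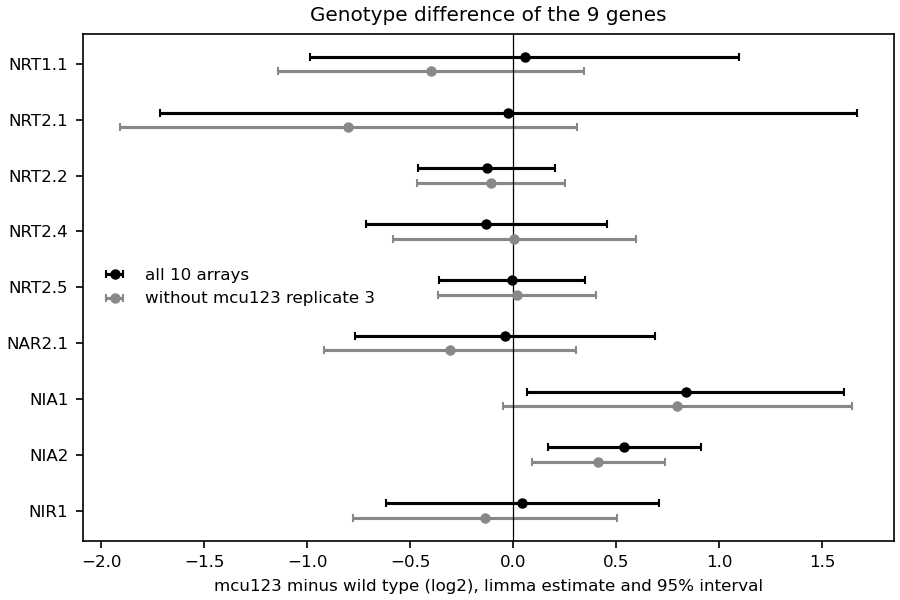
Difference of mcu123 minus wild type (log2) for the 9 genes, with limma estimates and 95% intervals from all 10 arrays (black) and without mcu123 replicate 3 (grey). The intervals of NIA1 and NIA2 lay above 0 with all arrays, none of the 9 passed after adjustment, and leaving out replicate 3 moved NRT2.1 most, to -0.80.

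In mcu123 replicate 3, 3 of the 9 genes were at least 2-fold above the mean of the other 4 mcu123 arrays and none was 2-fold below, where 3.14% and 2.14% of all genes were. NRT2.1 was at 7.60 in replicate 3 against 3.71 ± 0.30 in the other mcu123 arrays (SD, n = 4), 14.8-fold higher. NRT1.1 was at 11.18 against 8.91 ± 0.20, 4.85-fold higher, and NAR2.1 at 6.69 against 5.36 ± 0.20, 2.52-fold higher. NIR1 was just under the 2-fold line, at 8.49 against 7.58 ± 0.13 (1.88-fold). NIA2 was further below that line, at 7.34 against 6.71 ± 0.14 (1.55-fold). NIA1 was at 6.86 against 6.65 ± 0.53, within the spread of the other arrays. This array thus had high values of both uptake systems, of 1 of the pair of nitrate reductases and of nitrite reductase. Of the remaining NRT2 genes, NRT2.2 and NRT2.5 lay within the range of the other 9 arrays and NRT2.4 below it.

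Compared with all 9 other arrays, replicate 3 was the highest for NRT1.1, NRT2.1 and NIA2 and the lowest for NRT2.4, where 15.2% of all genes were highest and 14.6% lowest in this array. For NAR2.1 it was exceeded by wild type replicate 5, and for NIR1 by wild type replicate 2. MCU1 and MCU3 measured 2.69 and 3.95 in replicate 3, against 4.26 and 5.76 in the lowest wild-type arrays.

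Some cell type markers lay outside the range of the other 9 arrays in this array as well. Of all genes, 15.2% lay above that range and 14.6% below it, so such positions were common here. Of 3 phloem markers, SUC2, the sucrose loader, was at 3.23 against 4.96 to 6.06 on the other 9 arrays and APL at 4.92 against 5.11 to 5.80, while SEOR1 at 4.38 lay within 4.0 to 5.57. SUC2 did not overlap between the genotypes, at 3.23 to 5.34 in mcu123 and 5.35 to 6.06 in the wild type. Of all genes 1.02% had no overlap and were lower in mcu123, and SUC2 did not pass (limma adjusted p = 0.61). The mean over 4 root hair markers, 6.07, was the lowest of all 10 arrays, and all 4 were below the mean of the other mcu123 arrays but within the range of the other 9. Of 3 endodermis markers, MYB36 was at 5.74 against 6.08 to 7.38 on the other 9 arrays, SCR at 7.54 against 6.95 to 7.4, and CASP1 lay within. The mean over 3 xylem markers, 4.59, was the highest of all 10 arrays, with each gene within the range of the others. Of the 5 photosynthetic markers RCA was below the other 9 arrays, at 4.05 against 4.43 to 4.90, and the other 4 lay within. The part of these cell types in the nitrate values was not tested.

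**Figure D3:**
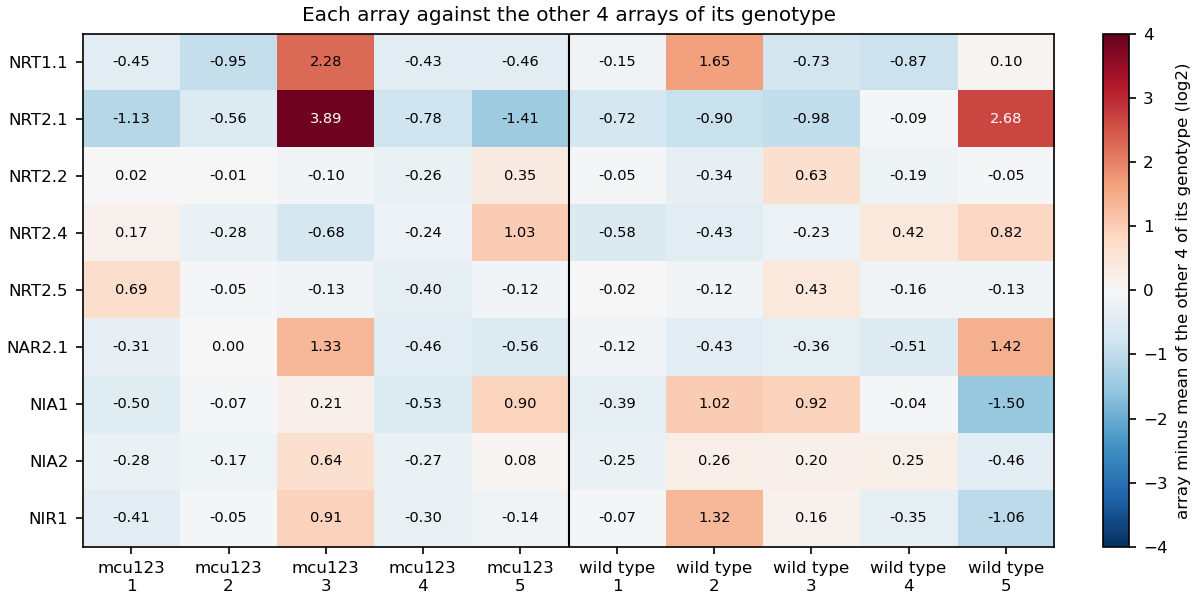
Each array's value minus the mean of the other 4 arrays of its genotype (log2) for the 9 genes, as numbers and colour, with mcu123 left of the line and wild type right of it. NRT2.1 was 3.89 above in mcu123 replicate 3 and 2.68 above in wild type replicate 5, while NRT1.1 was 2.28 above in mcu123 replicate 3 and 1.65 above in wild type replicate 2.

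The wild type held a high array for each of the uptake systems, and they were different arrays. Wild type replicate 5 was 2.68 above the other 4 wild-type arrays for NRT2.1 and 1.42 above for NAR2.1 on the log2 scale, but 0.10 above for NRT1.1. In the same array the reductive genes were low, with NIA1 at -1.50, NIR1 at -1.06 and NIA2 at -0.46 relative to the other wild-type arrays, so 2 of the 9 genes were at least 2-fold lower there (1.31% of all genes were). In wild type replicate 2, NRT1.1 was 1.65, NIR1 1.32 and NIA1 1.02 above the other wild-type arrays. NIA1 was nearly as high in wild type replicate 3, at 6.59 against 6.67 in replicate 2. NRT2.1 and NAR2.1 were not particular in replicate 2, at 3.80 and 5.32. Wild type replicates 1, 3 and 4 ranged over 3.73 to 4.44 for NRT2.1 and 5.25 to 5.57 for NAR2.1. At least 2-fold up were 2 of the 9 genes in wild type replicate 5, where 0.938% of all genes were, and 3 of the 9 in wild type replicate 2, where 1.28% of all genes were. The counts of these arrays depend on each other, because the mean for each included the other. NIR1 at 6.87 in replicate 5 was set against 8.77 in replicate 2 and 7.44 to 7.84 in replicates 1, 3 and 4. NIA1 at 6.67 in replicate 2 was set against 4.65 in replicate 5 and 5.54 to 6.59 in replicates 1, 3 and 4. In mcu123 replicate 3 the high values of NRT2.1 and NAR2.1 and those of NRT1.1 and NIR1 occurred together. These arrays were singled out by their values, and no difference between them and the rest was tested.

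**Figure D4:**
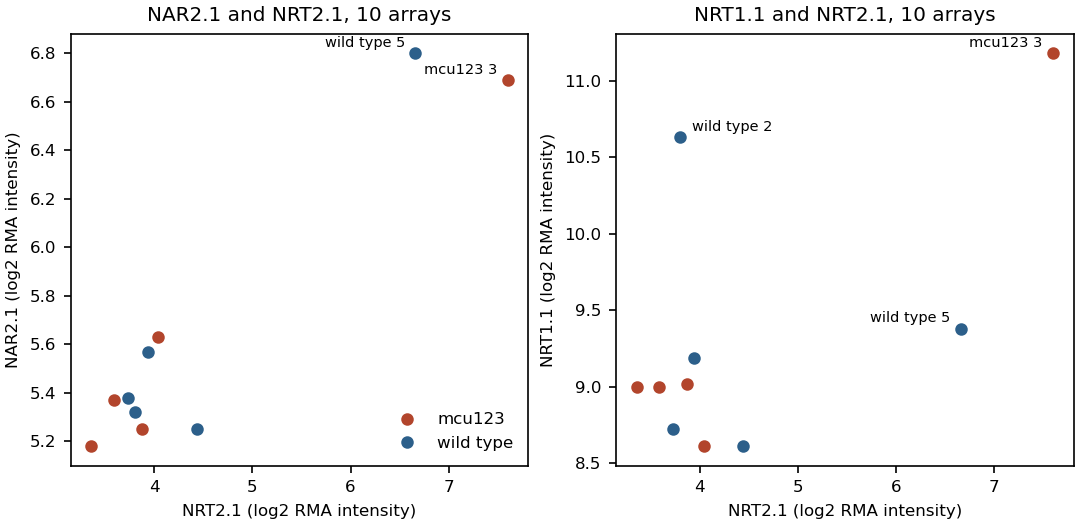
NAR2.1 (left) and NRT1.1 (right) against NRT2.1 on the 10 arrays, in log2 RMA intensity, with mcu123 in red and wild type in blue. For NAR2.1 and NRT2.1, mcu123 replicate 3 and wild type replicate 5 lay apart from the other 8 arrays, whereas wild type replicate 5 had an NRT1.1 value of 9.38 and wild type replicate 2 an NRT1.1 value of 10.63.

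Likeness to NRT2.1 was measured over the 9 arrays other than mcu123 replicate 3 as Pearson's r of values centred within genotype, as a description without a test. NAR2.1 had r = 0.93 and rank 35 among the 13910 genes at or above the array median. The ammonium transporter AMT1;1 had r = 0.92. NIA1, NIR1 and NIA2 had r = -0.80, -0.73 and -0.71, and NRT1.1 -0.08. Most of these values were smaller in size without wild type replicate 5, a choice made after the values were seen: r was then 0.25 for NAR2.1, 0.44 for AMT1;1 and -0.60, -0.40 and -0.16 for NIA1, NIR1 and NIA2. NRT1.1 went the other way, to -0.43 without wild type replicate 5, and had r = 0.49 without wild type replicate 2. The 5 genes most like NRT2.1 were AT1G30820 (r = 0.98), SIP2 (0.96), AT1G66930 (0.96), MYB28 (0.96), a transcription factor of aliphatic glucosinolate synthesis, and AT2G13422 (0.96). Without wild type replicate 5 none of the 5 was among the first 5. Of the 5, 2 stayed among the first 5 without wild type replicate 2, and 1 without centring within genotype. In mcu123 replicate 3, which this measure did not use, MYB28 was at 8.66 against 5.68 to 6.10 in the other mcu123 arrays. AT1G66930 was at 7.67 against 4.40 to 4.77, and SIP2 at 8.72 against 7.67 to 8.04. AT1G30820 and AT2G13422 were not high in that array, with 6.15 against 5.92 to 6.21 and 4.73 against 4.64 to 5.12.

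The other genes of nitrate handling were followed through 4 lists with 83 members, and none of the 83 passed the genotype test (0.0431% of all genes passed). Beside the counts of means in each list, 14670 of all 27826 genes had higher and 13156 lower means in mcu123. Among 19 other nitrate transporters and anion channels, 7 had higher and 12 lower means in mcu123, with a median difference of -0.11. SLAH1, an anion channel subunit, measured 1.56, 1.34, 2.01, 1.24 and 1.52 in mcu123, against 2.35, 2.85, 2.54, 2.38 and 1.56 in the wild type, a difference of -0.80 near the bottom of the scale (limma adjusted p = 0.35). The groups overlapped through wild type replicate 5. Without that array and mcu123 replicate 3 the difference was -1.12 and passed (limma adjusted p = 0.031), in a fit added after the values were seen. That fit left out the wild-type array that made the overlap and the highest mcu123 array, so its p-value cannot test genotype. SLAH1 did not pass in any other fit, including those that left out only mcu123 replicate 3 or only wild type replicate 5. CLCA, the nitrate and proton exchanger of the vacuole, and SLAH3, a nitrate-permeable channel, had differences of -0.31 and -0.35 (limma adjusted p = 0.62 and 0.73).

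In mcu123 replicate 3, 4 of these 19 genes were at least 2-fold above the mean of the other mcu123 arrays and none 2-fold below, where 3.14% and 2.14% of all genes were. CLCB, a relative of CLCA, was at 6.67 against 3.44 to 4.08 in the other mcu123 arrays and 3.02 to 4.75 in the wild type. NAXT1, a nitrate excretion transporter, was at 9.98 against 7.38 to 8.40 in the other mcu123 arrays, while the wild type ranged over 8.65 to 9.17. Without replicate 3 the NAXT1 genotype difference was -0.94, against -0.53 with it (limma adjusted p = 0.11 and 0.81). NAXT1 was named for its value in that array, so the p-value without the array cannot test genotype. SLAH2, a nitrate channel, was at 5.47 against 3.88 to 4.67 in the other mcu123 arrays, and NRT1.12 was the fourth of these genes.

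Of 31 regulators of nitrate signalling, 14 had higher and 17 lower means in mcu123, with a median difference of -0.02. NLP9 and CIPK23 did not overlap between the groups, where 1.02% of all genes had no overlap and were lower in mcu123. CIPK23, a kinase that phosphorylates NRT1.1, measured 9.20 ± 0.14 in mcu123 and 9.48 ± 0.18 in the wild type (limma adjusted p = 0.63). NLP9, a relative of the nitrate sensor NLP7, lay near the bottom of the scale at 1.3 ± 0.14 in mcu123 and 1.64 ± 0.17 in the wild type (limma adjusted p = 0.51). CPK32, a calcium-dependent kinase of nitrate signalling, had a difference of -0.41 (limma adjusted p = 0.69).

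NLP7, the transcription factor that senses nitrate, measured 6.62, 6.51, 8.30, 6.82 and 6.57 in mcu123, against 6.94, 7.02, 6.33, 6.60 and 7.52 in the wild type, with mcu123 replicate 3 and wild type replicate 5 highest as for NRT2.1. LBD39, a nitrate-induced repressor of nitrogen genes, measured 7.93, 7.97, 9.53, 7.96 and 8.00 in mcu123, against 8.03, 9.33, 7.32, 7.72 and 8.42 in the wild type. Its high arrays were those of NRT1.1 and NIR1. BT2, a scaffold protein known to lower NRT2 expression, was at 8.78 in mcu123 replicate 3, the lowest of all 10 arrays, against 9.86 to 10.42 in the other mcu123 arrays and 9.36 to 10.63 in the wild type. In replicate 3, 26 of the 31 regulators exceeded the average of the remaining mcu123 arrays, where 47.1% of all genes did, 3 of them at least 2-fold (3.14% of all genes), and BT2 was the single one at least 2-fold below (2.14%).

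Of 15 genes that supply reductant, sirohaem and molybdenum cofactor for nitrate reduction, 9 had higher and 6 lower means in mcu123. PGD1, a 6-phosphogluconate dehydrogenase of the pentose phosphate pathway, measured 7.44, 7.81, 7.62, 7.34 and 7.59 in mcu123, against 7.11, 6.96, 7.22, 7.17 and 7.17 in the wild type. PGD1 was the single gene of the 15 without overlap, where 0.683% of all genes had none and were higher in mcu123, and its difference of 0.43 did not pass (limma adjusted p = 0.33). HB1, a nitrate-inducible haemoglobin, had a difference of -0.68 and CNX5, of molybdenum cofactor synthesis, 0.26 (limma adjusted p = 0.67 and 0.73).

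None of the 15 was 2-fold apart in mcu123 replicate 3, where 3.14% of all genes were at least 2-fold up and 2.14% down. In wild type replicate 2, 4 of the 15 were at least 2-fold up, G6PD3 and UPM1 among them, where 1.28% of all genes were. UPM1, which makes the sirohaem precursor used by nitrite reductase, measured 8.32 in mcu123 replicate 3 against 7.50 to 7.59 in the other mcu123 arrays, and 8.62 in wild type replicate 2 against 7.51 to 7.64 in the other wild-type arrays. G6PD3, a plastid glucose-6-phosphate dehydrogenase, had the same high arrays, 6.91 in mcu123 replicate 3 and 7.01 in wild type replicate 2, against 5.60 to 6.30 on the other 8. FD3, the root ferredoxin that feeds nitrite reductase, was at 9.01 and 8.83 in those arrays against 8.21 to 8.50 on the rest.

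Of 18 genes of ammonium uptake and assimilation, 12 had higher and 6 lower means in mcu123, with a median difference of 0.14. Of all 27826 genes, 14670 had higher and 13156 lower means, with a median of 0.012. GDH2, a glutamate dehydrogenase, had a difference of -0.54, GLU1, a glutamate synthase, 0.43 and GLN1;1, a cytosolic glutamine synthetase, 0.30 (limma adjusted p = 0.57, 0.69 and 0.73). GLN2, the plastid glutamine synthetase, was 1 of 18 without overlap, where 0.683% of all genes had no overlap and were higher in mcu123. It was at 8.40 ± 0.06 in mcu123 and 8.22 ± 0.06 in the wild type (limma adjusted p = 0.74).

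In mcu123 replicate 3, 4 of these 18 genes were at least 2-fold above the mean of the other mcu123 arrays and 2 at least 2-fold below, where 3.14% and 2.14% of all genes were. AMT1;2, a root ammonium transporter, was at 8.19 against 3.82 to 4.20 in the other mcu123 arrays and 3.78 to 5.52 in the wild type. AMT1;1 was at 8.90 against 6.37 to 6.79 in the other mcu123 arrays, and in the wild type replicate 5 was highest at 8.10 against 6.17 to 6.94, the arrangement of NRT2.1. AMT1;3 was at 6.49 against 2.04 to 4.17 in the other mcu123 arrays and 3.38 to 5.03 in the wild type. The fourth was GLN1;2, a cytosolic glutamine synthetase, at 8.86 against a mean of 7.50 in the other mcu123 arrays. AMT1;5, another ammonium transporter, was at 4.17 against a mean of 4.35. The 2 genes below were ASN1, an asparagine synthetase, at 3.87 against a mean of 5.83, and GDH1, a glutamate dehydrogenase, at 6.36 against 7.66. ASN1 was lower still in wild type replicate 2, at 3.56 against 5.35 to 5.77 in the other wild-type arrays. GDH1 ranged over 7.19 to 7.84 on the other 9 arrays.

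**Figure D5:**
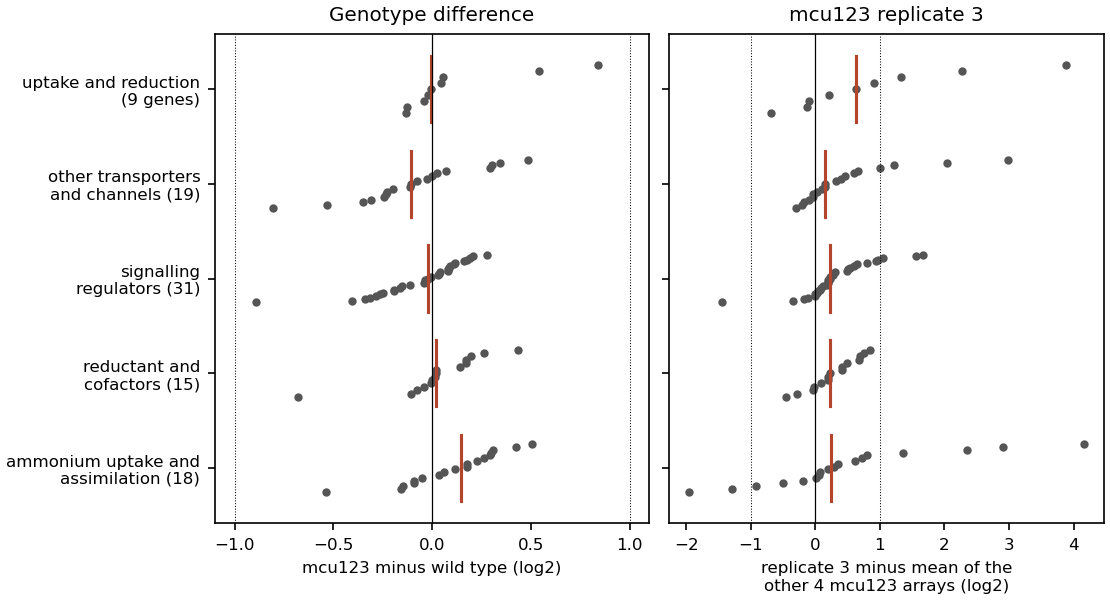
Genotype difference (left) and the height of mcu123 replicate 3 over the average of the 4 remaining mcu123 arrays (right), both log2, for the genes of nitrate uptake and reduction and of the 4 further lists; each point is a gene, red bars are list medians and dotted lines mark 2-fold. No point lay past 2-fold on the left, while NRT2.1 (3.89), CLCB (2.99), NLP7 (1.67) and AMT1;2 (4.16) were the rightmost points of their lists on the right.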

How the data were processed

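Roots were profiled on 10 arrays, 5 of mcu123 and 5 of the wild type, grouped by their titles. The values are log2 intensities deposited by the authors. The submitters' processing notes name RMA, a method that corrects background, quantile-normalises all arrays together and summarises probes per gene. No source used here gives the array model, the probe grouping or the build, and all 10 arrays held identical sorted values. Locus codes were named through the RefSeq table of TAIR10.1, which held 27241 of 27826 codes and all 9 nitrate genes. It was used for names and gene order only. No sequence was used here, so the planned motif and protein comparisons were not made.

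Genotype differences were fitted in R 4.3.3 by limma 3.58.1 (lmFit, eBayes, two-sided, genotype only), on all 27826 rows with Benjamini-Hochberg adjustment and a threshold of 0.05. The fit was also run on simulated arrays with independent normal values for each gene. Those held no array that stood apart over many genes, so the simulation does not cover that feature of these data. No row was filtered. Each array was also set against the mean of the other 4 of its genotype. The members and lists were chosen with earlier results of these data known. The text names the 9 genes, the MCU genes, 3 genes per further list by smallest p and 3 by largest difference in mcu123 replicate 3, and the 5 genes most like NRT2.1. Genes outside that rule (GLN2, NRT1.12, GLN1;2, AMT1;5, ASN1, GDH1, and the markers and MCU values beside a result) were named after their values were seen.

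Alternatives were cyclic loess, dropping the dimmest 30% of rows (8347), array weights, a prior that is trended and robust, a block for replicate number, leaving out every array in turn, and leaving out 2 pairs of arrays. Replicate numbers did not pair the arrays: deviations of same-numbered arrays correlated at 0.09, -0.21, -0.14, -0.03 and -0.10. No scan date or batch was available here, and precision is limited by how many arrays there are.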

Additional observations from a re-analysis of the deposited data

Results flagged for a closer look

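Of 72 sets of 5 arrays of 1 genotype (the 9 nitrate genes, the named genes of the further lists and the MCU genes), 15 held an array whose gap to its nearest neighbour took up more than 0.71 of the range. Chance alone would give this in about 5% of sets, but the count cannot be read against that share: the 9 genes were chosen after NRT2.1 was known to be high in mcu123 replicate 3, and 3 genes of each further list were named for their difference in that array. In 10 of the 15 the array was mcu123 replicate 3. It was highest among the mcu123 arrays for NRT1.1 (0.8386 of the range), NRT2.1 (0.8396), NIR1 (0.7286), CLCB (0.8024), NLP7 (0.8256), LBD39 (0.9579), UPM1 (0.8853), GLN1;1 (0.7848), AMT1;2 (0.9120) and AMT1;1 (0.8351).

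Among wild-type arrays, replicate 5 was highest for NRT2.1 (0.7583) and NAR2.1 (0.7946), and replicate 2 for UPM1 (0.8798). Replicate 3 was highest for NRT2.5 (0.7663), at 2.03 near the bottom of the scale, and lowest for GLN1;1 (0.7132).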

How the results depend on the processing

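None of the 9 nitrate genes passed in the 17 alternative fits. NIA1 and NIA2 kept their direction in all 17, at 0.50 to 1.04 and 0.32 to 0.60, and NRT2.2 in all 16 that held it. The other genes lay near 0 and changed sign in some fits. With each array left out, NRT1.1 ranged over -0.40 to 0.39, NRT2.1 over -0.80 to 0.51, NRT2.4 over -0.34 to 0.034, NRT2.5 over -0.14 to 0.081, NAR2.1 over -0.31 to 0.24 and NIR1 over -0.17 to 0.31. With array weights NRT1.1 was at -0.021 and NIR1 at -0.039. Without mcu123 replicate 3 and wild type replicate 2, NRT1.1 was at -0.070, NRT2.1 at -0.98 and NAR2.1 at -0.39, the last 2 being the lowest of any fit for these genes. Without mcu123 replicate 3 and wild type replicate 5, a fit added after seeing the data, NRT1.1 was at -0.38, NRT2.4 at 0.17 and NIR1 at -0.35. The count of 12 genes called over the whole table was 7 with the dimmest rows dropped, 35 with the trended and robust prior, 30 with array weights, 5 to 22 with 1 array left out, 7 without mcu123 replicate 3 and wild type replicate 2, and 31 without mcu123 replicate 3 and wild type replicate 5. With the replicate block it was 8, no nitrate gene passed and the block changed no call among them. With respect to pairing, no array of mcu123 correlated best with the wild-type array of its own number. The cause of these changes was not tested. Against the mean of the 5 wild-type arrays, 5 and not 3 of the 9 genes were at least 2-fold higher in mcu123 replicate 3. The share of all genes was not computed for that measure, so the count has no background. It also takes in the difference between genotypes, which was 0.84 for NIA1 and 0.54 for NIA2. The r of NAR2.1 with NRT2.1 was 0.25 without wild type replicate 5, an alternative added after seeing the data.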
